A study of Mus musculus with 4 samples.

Results

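The 9 genes described here are those of the AP-1 transcription factors and their relatives that were named by symbol: Fos, Fosb and Fosl2 of the FOS family, Jun, Junb and Jund of the JUN family, Batf, and the small MAF genes Mafk and Mafg. They were 9 of 24984 genes in a table of TTchem-seq fragments, and all 9 were among the 11625 genes with a mean CPM (a gene's counts scaled to the total of its library) of at least 1. TTchem-seq tags RNA made during a short exposure to 4-thiouridine. The tagged RNA is then fragmented, purified and sequenced so that a gene's signal follows its transcriptional output. The deposited gene lengths span introns, and whether fragments from introns were counted was not tested. The cells were CD4 and CD8 double positive (DP) thymocytes of mice. The wild-type (WT) group, 2 libraries, carried the floxed allele alone (labelled Tox4;F/F), and the conditional knockout (cKO) group, 2 libraries, carried it with Lck-Cre (labelled Tox4;F/F;Lck+). The floxed allele is therefore shared by both groups, and the WT group had no Cre. Per the study, Cre is driven by the proximal Lck promoter, which acts in developing T cells, and the controls were littermates of matched sex. All cells were held in culture for 0.5 hr before 4-thiouridine was added.

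AP-1 is a dimer of basic leucine zipper proteins. JUN proteins pair with themselves or with FOS proteins, whereas FOS proteins need a partner, and the dimers bind the motif TGANTCA in promoters and enhancers. Fos and Jun are classical immediate early genes, switched on within minutes of growth factor or antigen receptor signals through MAP kinases. BATF pairs with JUN proteins in lymphocytes, and the small MAF proteins, which have no activation domain of their own, pair with BACH and NFE2 family proteins.

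The libraries held between 38429713 and 48690544 fragments, and the 36 values of the 9 genes rested on 281 to 5518 fragments each, the lowest being those of Mafg and Batf. Fragments had no molecular identifiers and are not independent molecules. Tox4 itself, measured over the whole gene and not only over the deleted part, read 74.0 and 70.3 CPM in WT against 59.3 and 57.2 CPM in cKO, a log2 fold change of -0.31 with SE 0.10 (DESeq2 adjusted p-value 0.0453). It missed the threshold in each fit without 1 library, with DESeq2 adjusted p-values from 0.196 to 0.792. Xist, which is transcribed in female cells, stood at 172 CPM in WT replicate 1, with no other library above 2.36 CPM, so WT replicate 1 stood apart, and the log2 fold change of each of the 9 genes without it is given below. The labels give no sex. The study describes its mice as matched for sex, whereas Xist was high in this library alone. The DP markers Cd4, Cd8a and Rag1 were between 383 and 1169 CPM in the 4 libraries, and of 14 DP markers 1 was called as increased in cKO (Lck) and 3 as decreased (Cd8a, Rag1 and Tcf7). Without WT replicate 1, WT replicate 2 or cKO replicate 1 the DP markers called were 2, and without cKO replicate 2 only 1, with Cd8a called each time, while Rag1 (DESeq2 adjusted p-value 0.0499) was also lost under other size factors. edgeR called 0 of the 14, of which 5 had an unadjusted p-value under 0.05, a limit for which the share over all genes was not computed. Over all genes with a mean of at least 1 CPM, DESeq2 called 2.14% as increased and 1.57% as decreased. The summed level of 7 markers of mature single positive cells ran from 500.3 to 510 CPM in WT and from 442 to 505 CPM in cKO, while Il7r was higher and Ccr7 lower in cKO. Those of B cells (8.87 to 10.1 CPM) and myeloid cells (9.69 to 13.0 CPM) were low, and that of 5 dendritic cell markers was 8.40 and 9.28 CPM in WT and 4.87 and 6.72 CPM in cKO. Their part in the results on AP-1 genes was not tested, and in bulk samples fewer cells of a type and less RNA per cell cannot be told apart.

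The comparison asks whether the output of these genes differed between DP thymocytes with and without Tox4. Fosl2 rose and Jun fell in cKO, and the other 7 genes did not pass the test. A gene was called at a DESeq2 adjusted p-value under 0.05, a change of 1.2-fold or more and a mean of 1 CPM or more. The adjustment was over the genes that DESeq2's filter on mean count kept. Of the 11625 genes with a mean of at least 1 CPM, 3.71% were called (2.14% increased and 1.57% decreased), beside 2 of these 9. Over the 9 genes the log2 fold change had a median of -0.00, and over all 11625 genes one of 0.00. With edgeR's quasi-likelihood test, which called 0.499% of the same 11625 genes (0.413% increased and 0.086% decreased), 0 of the 9 were called. Of the 9, 2 had an unadjusted edgeR p-value under 0.05, a limit for which the share over all genes was not computed. Libraries came from different mice, and with 2 in each group the error of every fold change is itself uncertain.

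**Figure D1:**
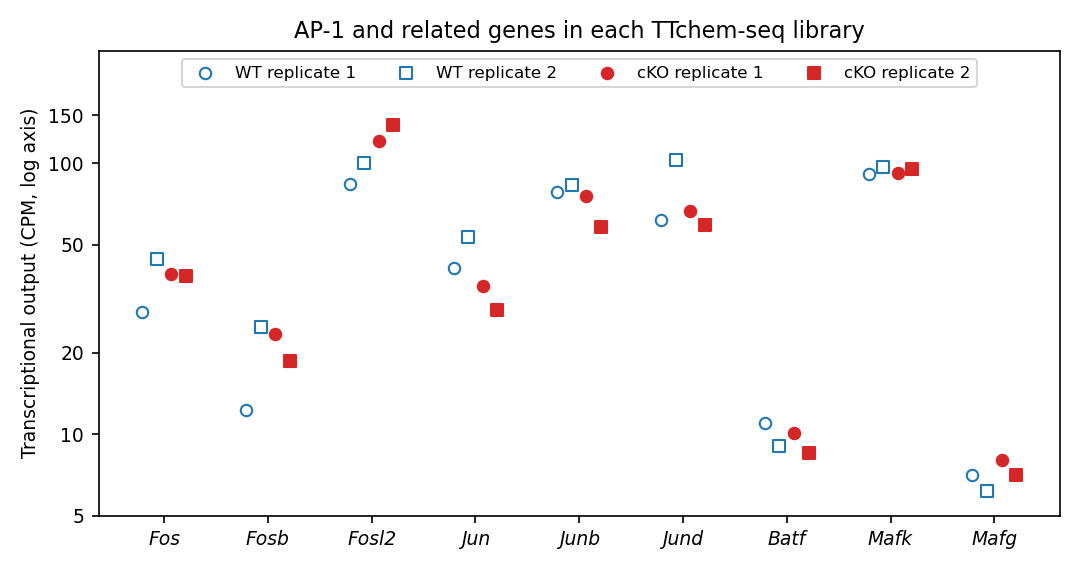
Transcriptional output of the 9 genes in each library, in CPM on a log axis. Each point is 1 library, WT open in blue and cKO filled in red. The 2 cKO libraries lie above both WT libraries for Fosl2 and Mafg, below both for Jun and Junb, and overlap them for the other 5 genes.

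The libraries of the genotypes did not overlap for 4 of the 9 genes, Fosl2 and Mafg being higher and Jun and Junb lower in cKO. Over all genes with a mean of at least 1 CPM, 48.9% showed such a separation (24.9% higher and 24% lower in cKO), so the 4 genes stand near the background, and separation by itself carries little with 2 libraries a group.

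Among the FOS family, Fosl2 (chromosome 5, 32136472 to 32157839, plus strand, build GRCm38) encodes FRA2, a FOS protein without the strong activation domain of FOS. It has 4 exons, and its 21368 bp are 27.4% exonic. Its output was 83.8 and 99.9 CPM in WT replicates 1 and 2, and 120.4 and 138.8 CPM in cKO replicates 1 and 2. Both cKO libraries were thus above both WT libraries, with the gap between genotypes about as wide as the gap within each. The means were 91.8 ± 11.3 CPM in WT and 129.6 ± 13.0 CPM in cKO (SD, n = 2 each). The fold change was 1.41, or 0.49 on the log2 scale (SE 0.11, DESeq2 adjusted p-value 7.93e-04). The call depended on single libraries: the log2 fold change was 0.37 without WT replicate 1 (DESeq2 adjusted p-value 0.161) and 0.38 without cKO replicate 2 (DESeq2 adjusted p-value 0.474), whereas it was 0.63 without WT replicate 2 (DESeq2 adjusted p-value 1.15e-04) and 0.60 without cKO replicate 1 (DESeq2 adjusted p-value 0.0145). The edgeR adjusted p-value with all 4 libraries was 0.129.

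The promoter windows of the called genes are shown because they carry the change between genotypes, and that of Jund because it was the only other of the 9 with a match to the spaced motif below. They cover 250 bases before to 50 bases after the transcription start, from RefSeq on GRCm38.p6, for which all 9 genes matched by symbol. Fosl2 lies at chr5:32136222-32136521 on the plus strand, Jun at chr4:95052173-95052472 on the minus strand and Jund at chr8:70697489-70697788 on the plus strand. Each is printed 5′ to 3′ on the strand of the gene, and capitals mark matches to TGANNTCA, the form with a spacer of 2 bases that includes the CRE, or to the GC box GGGCGG on either strand.
Fosl2: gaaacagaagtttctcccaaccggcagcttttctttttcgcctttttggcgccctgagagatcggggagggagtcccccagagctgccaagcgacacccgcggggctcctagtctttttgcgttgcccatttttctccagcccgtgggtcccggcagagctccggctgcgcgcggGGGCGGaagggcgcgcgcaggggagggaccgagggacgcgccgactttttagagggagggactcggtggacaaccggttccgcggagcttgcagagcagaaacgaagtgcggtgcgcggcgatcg
Jun: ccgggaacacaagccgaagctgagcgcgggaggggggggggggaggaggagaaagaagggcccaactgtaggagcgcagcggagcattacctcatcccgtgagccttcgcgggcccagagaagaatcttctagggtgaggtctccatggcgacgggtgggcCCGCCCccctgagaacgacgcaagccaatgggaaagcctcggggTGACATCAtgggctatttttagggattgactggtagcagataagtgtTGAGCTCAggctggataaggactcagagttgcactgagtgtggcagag
Jund: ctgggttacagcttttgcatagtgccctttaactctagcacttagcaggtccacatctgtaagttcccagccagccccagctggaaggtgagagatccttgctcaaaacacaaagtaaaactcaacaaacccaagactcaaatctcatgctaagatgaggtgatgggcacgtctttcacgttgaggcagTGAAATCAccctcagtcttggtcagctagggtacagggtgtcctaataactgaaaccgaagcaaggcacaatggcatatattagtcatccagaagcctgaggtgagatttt
The Jun window held TGACATCA starting 45 bases before the start and TGAGCTCA starting at base 2, beside a GC box read as CCGCCC. The Fosl2 window held 1 GC box, 75 bases before the start, and no match to TGANNTCA. The Jund window held TGAAATCA 61 bases before the start and no GC box. TGANNTCA, which is its own reverse complement, matched 2 of the 9 genes and 14.1% of 32851 promoters of this length, and GGGCGG matched 6 of the 9 and 35.7% of them. The strict forms TGANTCA (7.81% of promoters), TGACGTCA (1.79%) and the CArG box (1.63%), all searched on both strands, matched 0 of the 9 windows. Sites more than 250 bases before the start were not searched, so a gene without a match here can hold such a site farther away. TGACGTCA and TGANNTCA overlap as motifs. These are matches of letters and say nothing of binding.

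Fos (chromosome 12, 85473890 to 85477274, plus strand), the founding member of the family, has 4 exons in 3385 bp. Its output was 28.3 CPM in WT replicate 1, 44.1 CPM in WT replicate 2, 39.0 CPM in cKO replicate 1 and 38.2 CPM in cKO replicate 2. The cKO libraries nearly coincided and lay between the WT libraries, which differed 1.56-fold. The log2 fold change was 0.09 (95% interval -0.25 to 0.43, DESeq2 adjusted p-value 0.898). Its sign turned without WT replicate 1, where it was -0.20, and it was 0.45 without WT replicate 2. Neither passed the test.

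Fosb (chromosome 7, 19302696 to 19310045, minus strand) encodes a FOS protein that is also made in a truncated form by splicing. Its output was 12.3 and 24.8 CPM in WT and 23.5 and 18.6 CPM in cKO. WT replicate 1 stood alone at the bottom, and WT replicate 2 was above both cKO libraries. The log2 fold change was 0.18 with an interval from -0.84 to 1.197, the widest of the FOS genes, and the DESeq2 adjusted p-value was 0.940. Without WT replicate 2 it was 0.78 (DESeq2 adjusted p-value 0.0448, a call), and without WT replicate 1 it was -0.25, so the direction for Fosb was set by which WT library was kept. The fourth gene of the family, Fosl1, named to complete it after its values had been seen, was at a mean of 0.477 CPM, under the limit of 1 CPM for a call.

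Among the JUN family, Jun (chromosome 4, 95049036 to 95052222, minus strand) encodes c-JUN, the strongest activator among the JUN proteins. It is a single exon of 3187 bp. Its output was 41.1 and 53.4 CPM in WT replicates 1 and 2, and 35.2 and 28.6 CPM in cKO replicates 1 and 2. Both cKO libraries were below both WT libraries, and cKO replicate 1 was closer to WT replicate 1 than the WT libraries were to each other. The means were 47.2 ± 8.71 CPM in WT and 31.9 ± 4.67 CPM in cKO (SD, n = 2 each). WT was 1.49-fold higher, and the DESeq2 log2 fold change was -0.57 with SE 0.15 (DESeq2 adjusted p-value 0.00774). Leaving out WT replicate 2 gave a log2 fold change of -0.36 (DESeq2 adjusted p-value 0.473), and leaving out cKO replicate 2 gave -0.43 (DESeq2 adjusted p-value 0.677), so neither passed the test. It did pass without WT replicate 1, at -0.76 (DESeq2 adjusted p-value 0.00372), and without cKO replicate 1, at -0.72 (DESeq2 adjusted p-value 0.0433). With all 4 libraries the edgeR adjusted p-value was 0.197.

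Junb (chromosome 8, 84976909 to 84978748, minus strand), a weaker activator that can restrain c-JUN, is a single exon of 1840 bp. It was at 78.5 and 82.9 CPM in WT and at 75.9 and 58.2 CPM in cKO. The groups did not overlap, although cKO replicate 1 lay just under WT replicate 1 and cKO replicate 2 stood well below the other 3 libraries. The log2 fold change was -0.27 (SE 0.12, DESeq2 adjusted p-value 0.257), and it ranged from -0.47 to -0.10 when 1 library was left out (-0.32 without WT replicate 1).

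Jund (chromosome 8, 70697739 to 70700616, plus strand), the JUN gene usually described as the most evenly expressed, is a single exon of 2878 bp. It was at 62.0 and 103.1 CPM in WT and at 66.4 and 58.9 CPM in cKO. WT replicate 2 stood alone at the top, and WT replicate 1 lay between the cKO libraries. The log2 fold change was -0.40 with a standard error almost as large (SE 0.37, DESeq2 adjusted p-value 0.731). Without WT replicate 1 it was -0.73 and passed the test (DESeq2 adjusted p-value 2.50e-05), whereas without WT replicate 2 it was 0.02.

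**Figure D2:**
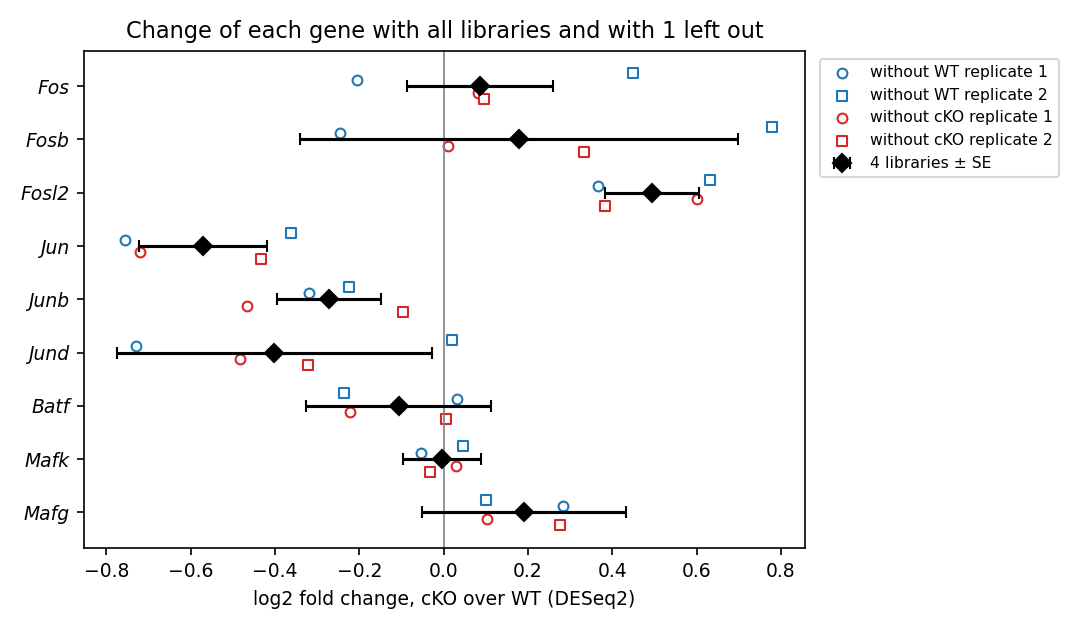
The log2 fold change of cKO over WT for each of the 9 genes, from DESeq2. Diamonds with bars give the estimate from 4 libraries ± SE, and open symbols the estimate with 1 library left out (blue, a WT library; red, a cKO library; circles, replicate 1; squares, replicate 2). Fosl2 stays above 0 (0.37 to 0.63) and Jun below 0 (-0.76 to -0.36), while Fos, Fosb, Batf and Mafk cross 0 and so does Jund, from -0.73 to 0.02.

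The FOS sum was higher, and the JUN sum lower, in both cKO libraries than in both WT libraries. Fos, Fosb and Fosl2 together were at 124.4 and 168.7 CPM in WT and at 182.8 and 195.6 CPM in cKO. Jun, Junb and Jund together were at 181.6 and 239.5 CPM in WT and at 177.5 and 145.7 CPM in cKO. The ratio of the FOS sum to the JUN sum was 0.685 and 0.705 in WT and 1.03 and 1.34 in cKO, so it was nearly equal in the WT libraries, in which both sums differed by much more, and higher in both cKO libraries. This ratio was formed with the changes of Fosl2 and Jun known and is a description, with no test. CPM are not divided by gene length, so Fosl2, the longest gene of the 6, weighs most and made up 59.2% to 70.9% of the FOS sum in the 4 libraries. Without Fosl2 the FOS sum was 40.6 and 68.9 CPM in WT and 62.4 and 56.8 CPM in cKO, and without Jun the JUN sum was 140.5 and 186.1 CPM in WT and 142.3 and 117.1 CPM in cKO. Both overlap between genotypes, so the separation of each sum rested on its called gene. Jun made up 22.6% and 22.3% of the JUN sum in WT and 19.8% and 19.6% in cKO, a narrow range in which the genotypes did not overlap. The ratio of Fosl2 to Jun alone was 2.04 and 1.87 in WT and 3.42 and 4.85 in cKO.

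**Figure D3:**
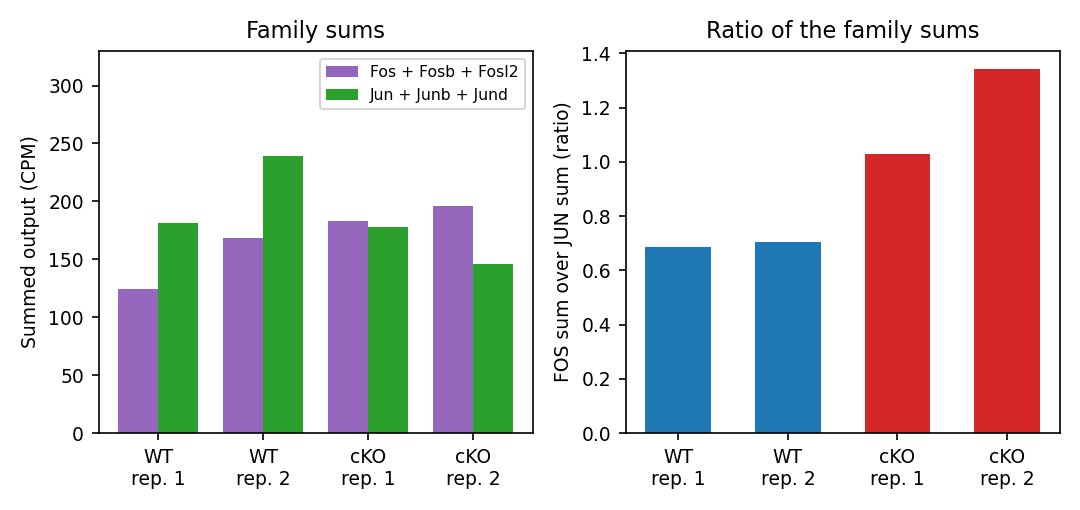
Left, summed output of the FOS genes (purple) and of the JUN genes (green) in each of the 4 libraries, in CPM. Right, the ratio of these sums, with WT in blue and cKO in red, 0.685 and 0.705 in WT and 1.03 and 1.34 in cKO.

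Batf and the small MAF genes did not pass the test. Batf (chromosome 12, 85686720 to 85709087, plus strand), the partner of JUN at composite sites with IRF4, is only 4.04% exonic in its 22368 bp. It was at 10.98 and 9.02 CPM in WT and at 10.1 and 8.53 CPM in cKO. The libraries of the genotypes alternated, and the log2 fold change was -0.11 (95% interval -0.54 to 0.32, DESeq2 adjusted p-value 0.902) and turned to 0.03 without WT replicate 1. Mafk (chromosome 5, 139791536 to 139802652, plus strand) was at 91.3 and 96.8 CPM in WT and at 92.4 and 95.5 CPM in cKO. Taken as ratios, the 4 values of Mafk were the closest among the 9 genes, and the 95% interval of its log2 fold change, -0.19 to 0.18, was the narrowest of the 9. Without WT replicate 1 its log2 fold change was -0.05. Mafg (chromosome 11, 120628351 to 120633547, minus strand) was at 7.06 and 6.16 CPM in WT and at 8.04 and 7.07 CPM in cKO. Its groups barely separated, with cKO replicate 2 next to WT replicate 1, and the log2 fold change was 0.19 (SE 0.24, DESeq2 adjusted p-value 0.822), and 0.28 without WT replicate 1. The remaining small MAF gene, Maff, named to complete the group after its values had been seen, had a log2 fold change of -0.49 and missed the threshold (DESeq2 adjusted p-value 0.0702).

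Levels were compared between genes per length, as CPM divided by the kb of the whole gene, introns included. The order over the 4 libraries was Junb (mean 40.2 CPM per kb), Jund (25.2), Jun (12.4), Fos (11.05), Mafk (8.46), Fosl2 (5.18), Fosb (2.69), Mafg (1.36) and Batf (0.431). On this scale Jun and Fos changed places between the genotypes: Jun was at 14.8 and Fos at 10.7 CPM per kb in WT, and Jun at 10.01 and Fos at 11.4 in cKO, with Fos above Jun in both cKO libraries. Junb exceeded 98.9% of genes with a mean of at least 1 CPM, whose median was 1.46 CPM per kb. Neighbours whose 4 libraries overlapped were Junb with Jund, Jun with Fos, and Fos with Mafk. Fosl2 was at 4.30 ± 0.531 CPM per kb in WT and at 6.06 ± 0.608 in cKO, and Jun at 14.8 ± 2.73 and 10.01 ± 1.47 (SD, n = 2 each) with Fosl2 below Jun in every library. This order holds for the whole gene length only. Per kb of RefSeq exons, a scaling added after the data had been seen, it was Junb (40.2), Mafk (33.3), Jund (25.2), Fosl2 (18.9), Fos (17.7), Jun (12.4), Batf (10.7), Fosb (5.24) and Mafg (4.32), with Fosl2 and Fos above Jun in all 4 libraries. If the counts include introns, as the deposited lengths do, this scaling overstates genes with little exon, such as Batf (4.04% exonic) and Mafk (25.4%).

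The spread between libraries of 1 genotype was wide for these genes. The median difference of log2 CPM between the WT libraries, regardless of sign, was 0.27 over the 9 genes, and 0.10 over the 6823 genes whose mean lay in the same range (7.08 to 110.7 CPM). Between the cKO libraries it was 0.20 and 0.11. WT replicate 2 was higher than WT replicate 1 for 7 of the 9 genes, with Fosb (0.98 on the log2 scale), Jund (0.73) and Fos (0.63) at the top and Mafg and Batf on the other side. For 5 of the 9 genes, the log2 fold change between genotypes was smaller in size than the gap between the WT libraries.

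Gene length moved with the same differences. Among 1057 genes of 2 to 5 kb, the class that holds Fos, Jun and Jund, 68.1% were higher in WT replicate 2 and the median log2 difference was 0.10. That class had 0 genes called as increased in cKO and 1.70% called as decreased, and its median log2 fold change was -0.05. In the class of 10 to 30 kb, which holds Fosl2, Batf and Mafk, 1.27% were increased and 1.58% decreased, and the median log2 fold change was -0.01. With a trend on gene length taken out of each library, an alternative chosen after the data had been seen, both calls stood, with log2 fold changes of 0.50 for Fosl2 (DESeq2 adjusted p-value 3.42e-04) and -0.51 for Jun (DESeq2 adjusted p-value 0.00683).

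Fos, Jdp2 and Batf lie in a row on chromosome 12, 235 kb from the start of Fos to the end of Batf. Jdp2, which encodes a bZIP protein that pairs with JUN and represses AP-1 sites, starts 122 kb after the end of Fos and ends 46.8 kb before Batf. It was at 65.4 and 72.2 CPM in WT and at 110.4 and 127.7 CPM in cKO, with both cKO libraries well above both WT libraries. Its log2 fold change was 0.79 (SE 0.11, DESeq2 adjusted p-value 1.05e-10, edgeR adjusted p-value 0.0336), while Fos and Batf on either side of it were not called. From 300 kb before to 400 kb after the start of Fos, 9 of 12 genes had a mean of at least 1 CPM, and Jdp2 was the 1 called.

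**Figure D4:**
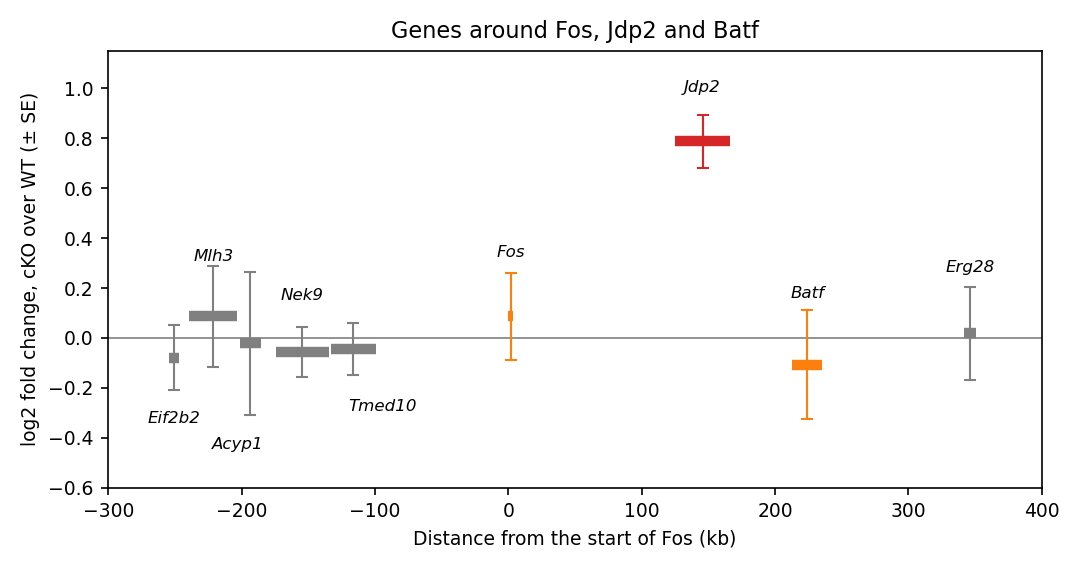
The log2 fold change of cKO over WT for the 9 genes with a mean of at least 1 CPM around Fos, against the distance from the start of Fos in kb. Thick bars span each gene and thin bars give ± SE. Jdp2 (red) is at 0.79, and Fos and Batf (orange) and the 6 other genes (grey) lie between -0.11 and 0.09.

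Genes that act with or upstream of AP-1 were counted in 6 lists. Over the 11625 genes with a mean of at least 1 CPM, 2.14% were called as increased and 1.57% as decreased. Among 17 other genes of bZIP partners (11 with a mean of at least 1 CPM, median log2 fold change -0.08), Jdp2 was increased and 0 were decreased. Among 13 genes of factors that act on the Fos and Jun promoters, such as SRF and CREB, 0 were called, with a median of -0.06. Mef2d, the most highly expressed of them, had a log2 fold change of -0.21 and a DESeq2 adjusted p-value of 0.0326, under the 1.2-fold limit. Among 15 MAP kinase genes (14 with a mean of at least 1 CPM), 0 were called, with a median of 0.01, and Map2k5, the most highly expressed of them, was at -0.01.

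Among 8 genes of the turnover of AP-1 proteins and mRNA, Zfp36, whose protein speeds decay of AU-rich mRNA, fell (log2 fold change -0.33, DESeq2 adjusted p-value 0.0317), and 0 rose. Among 21 immediate early genes outside AP-1 (18 with a mean of at least 1 CPM, median log2 fold change -0.06), 2 rose and 3 fell. The shares over all genes with that mean were 2.14% increased and 1.57% decreased. Egr1, a zinc finger factor induced through the same MAP kinase signals as Fos, was at 19.1 and 16.9 CPM in WT and at 10.6 and 11.5 CPM in cKO (log2 fold change -0.70, DESeq2 adjusted p-value 0.00406). Ier5 (-0.53) and Btg2 (-0.31), an antiproliferative gene, fell as well. Myc, the growth regulator, was at 6.62 and 9.51 CPM in WT and at 14.8 and 13.6 CPM in cKO (log2 fold change 0.81, DESeq2 adjusted p-value 0.0103), and the nuclear receptor gene Nr4a3 rose by 0.37 on the log2 scale. Of 18 genes described as targets of AP-1 (11 with a mean of at least 1 CPM, median log2 fold change -0.12), Ccr7, a chemokine receptor gene of maturing thymocytes, fell (-0.34, DESeq2 adjusted p-value 0.00714), and 0 rose. In the same list Fasl, named after its values had been seen, was at 19.5 and 13.4 CPM in WT and at 108.2 and 5.58 CPM in cKO, so cKO replicate 1 stood apart. Its DESeq2 log2 fold change was 1.78 with all libraries (DESeq2 adjusted p-value 0.722), 2.71 without cKO replicate 2 and -1.55 without cKO replicate 1, and it passed the test in both of the latter, in opposite directions. Of the 8 genes called in these lists, edgeR called only Jdp2.

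Among these 8, only Jdp2 was called in every fit that left out 1 library. Egr1, Ier5, Zfp36 and Nr4a3 were called in 0 of the 4, and the lowest DESeq2 adjusted p-value was 0.0661 for Egr1, 0.173 for Ier5, 0.158 for Zfp36 and 0.0555 for Nr4a3. Myc passed only without WT replicate 2 (DESeq2 adjusted p-value 0.00540) and Btg2 only without WT replicate 1 (6.45e-04), while Ccr7 lost its call without WT replicate 1 (0.213) and without cKO replicate 2 (0.758). With the length trend removed, 5 of the 8 were called, Egr1 among them (log2 fold change -0.65). The others changed little in size and missed a limit, Ier5 at -0.47 (DESeq2 adjusted p-value 0.0528), Zfp36 at -0.26 (0.181) and Btg2 at -0.26 (0.0210, under the 1.2-fold limit).

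The genes most like Fos and Jun across the 4 libraries were sought among 8152 genes with a mean of at least 10 CPM, by the root mean square distance between log2 CPM centred on each gene's own mean. For Fos these were Klf10 (distance 0.03), Emp3 (0.03), Gtse1 (0.04), Tubb5 (0.05) and Arhgap19 (0.05). Klf10, for example, was at 24.8 and 37.1 CPM in WT and at 32.9 and 33.2 CPM in cKO, low in WT replicate 1 and close together in cKO as Fos was. For Jun they were Auts2 (0.03), Glis3 (0.05), Prkcz (0.05), Crim1 (0.05) and Map3k8 (0.06). With 4 libraries such likeness is a description, and many genes can share a pattern of 4 values.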

How the data were processed

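Groups came from the sample titles, with 2 libraries each. The deposited table held expected counts per gene (8.61% of values were fractional, 1 of them among the 36 values of the 9 genes, and how the fractions arose is not given in the sources used here), and the authors gave a gene length in bp as another column, which spans introns. The submitters' processing notes name fastp 0.13.1, STAR 2.7.9a, featureCounts 1.6.1 and the mouse build mm10 (GRCm38). The labels describe capture of polyA RNA, whereas the study's methods give depletion of ribosomal RNA. Spike-in RNA of yeast was added by the authors and, as in their analysis, was not used for scaling. Scaling to library size cannot show a change common to all genes.

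Counts were rounded and fitted for all genes with the Wald test of DESeq2 1.42.0, without covariates (the study names DESeq2, in an older version). Benjamini-Hochberg adjustment was over the genes kept by DESeq2's default filter on mean count. Some genes with a mean of at least 1 CPM therefore had no adjusted p-value and could not be called. CPM were computed from library totals. SD is over the libraries of a group, whereas SE and intervals of log2 fold changes are those of the DESeq2 fit. edgeR 4.0.16, limma 3.58.1 voom, other size factors, a stricter filter, a replicate block, leaving out each library and removal of a length trend (chosen after the data had been seen) were tried, with R 4.3.3, Python 3.11.15, pandas 2.3.3, numpy 2.4.6 and matplotlib 3.10.9. Sequences were from RefSeq promoters on GRCm38.p6. WT and cKO libraries of the same replicate number were not taken as pairs, which the labels do not give. They did not deviate together (r = -0.03 over genes), but 1 such value cannot exclude a shared batch or litter. The share of the ribosomal precursor Rn45s followed the number (2.71% and 2.44% in replicates 1, 4.30% and 4.05% in replicates 2). Replicates differed by more than counting noise (chi-square per degree of freedom 40.7 in WT and 30.7 in cKO). On simulated data of 24984 genes for this comparison, DESeq2 recovered 28% of genes changed 1.3-fold and 46% of genes changed 1.5-fold, and edgeR 6% and 34%, and each made 15 calls among the unchanged genes.

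The members and lists were chosen with earlier results of these data known. Named genes were the 9 genes, Tox4, called genes of the 6 lists (at most 6 a list, otherwise the 2 with the highest CPM) and the 5 genes most like Fos and Jun each. Some genes that these rules and the marker lists would name are not reported here.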

Additional observations from a re-analysis of the deposited data

How the results depend on the processing

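The number of the 9 genes called was 2, and it was 0 with edgeR, 0 with limma voom, 0 where 1.5-fold was asked for and from 0 to 2 when 1 library was left out (0 without cKO replicate 2). Under edgeR, 2 of the 9 had an unadjusted p-value under 0.05, and under voom 3, and the share of all genes under that limit was not computed. Fosl2 kept its direction but missed the threshold with edgeR (0.49, adjusted p-value 0.129) and with voom (0.49, 0.120), and its log2 fold change ranged from 0.37 to 0.63 when 1 library was left out. Jun did so as well with edgeR (-0.57, 0.197) and with voom (-0.57, 0.187), and it ranged from -0.76 to -0.36. The number of genes called in the 6 lists was 8, and it was 1 with edgeR, 1 with voom, 5 with the length trend removed and between 2 and 4 without 1 library. The latter counts include genes not among the 8 (Zfp36l2 without WT replicate 2, and Fasl without either cKO library), and only Jdp2 of the 8 was called without cKO replicate 2. With the replicate number as a block, which assumes pairs that the labels do not give, DESeq2 called 1 of the 9 (Fosl2, not Jun, which was at -0.56 with adjusted p-value 0.0933) and 1 gene of the lists, and edgeR called 0 and 1, with Fosl2 at 0.50 (0.0713) and Jun at -0.56 (0.285). Over all genes the calls (increased and decreased) were 249 and 182 with DESeq2, 48 and 10 with edgeR, 121 and 72 with the block in DESeq2, 19 and 9 with the block in edgeR, and, with WT replicate 1, WT replicate 2, cKO replicate 1 or cKO replicate 2 left out, 113 and 71, 320 and 126, 78 and 48, or 61 and 28. In fits without 1 library the lone library was taken to vary like the other group. The cause of these differences was not tested. The number of genes whose groups did not overlap, the order per length and the spread between replicates were computed without a test and do not rest on these fits. The lowest count among the 9 genes was 281, and with 2 libraries a group their number limits the precision too.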
